A study of Mus musculus with 18 samples.

Results

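The CXC chemokines described here were *Cxcl1*, *Cxcl2*, *Cxcl3*, *Cxcl5*, *Ppbp*, *Pf4*, *Cxcl9*, *Cxcl10* and *Cxcl16*. They were chosen by symbol, as the Ensembl genes of the count files that map to these names, and all 9 were found among the 55029 genes listed for the *E. coli* and IFN-γ libraries and among the 54232 listed for the IL-4 libraries. CXC chemokines are small secreted proteins that guide leukocytes and are named for a pair of cysteines with a single residue between them. Those with Glu-Leu-Arg directly before the cysteines (the ELR class) bind Cxcr2 and attract neutrophils, whereas CXCL9 and CXCL10 lack these residues, are induced by interferons and attract activated T and NK cells through Cxcr3. PF4 and PPBP are abundant in platelet granules, and CXCL16 is made as a membrane protein, is released by the proteases Adam10 and Adam17, and binds Cxcr6.

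The study asked how eosinophils respond to type 1, type 2 and bacterial stimuli. RNA was measured in 18 libraries of eosinophils taken from the peritoneal cavity of C57BL/6 mice of the NJ.1638 *Il5* transgenic line, enriched by removing cells that bound anti-Thy1.2 or anti-B220 beads. The cells were used after a flow cytometry check of purity and viability. The cells were kept for 18 h with heat-inactivated *E. coli*, with IFN-γ at 50 ng/ml, with IFN-γ and *E. coli* together or with IL-4 at 100 ng/ml, in 3 libraries each. In 6 libraries they were unstimulated, and whether these cells were also kept for 18 h was not stated. The files had 2 layouts. Controls a to c, unstimulated, share the layout of *E. coli*, IFN-γ and both stimuli (the first set), and controls d to f, also unstimulated, that of IL-4 (the second set). All groups, controls included, carry the *Il5* transgene, and neither the age of the mice nor the promoter of the transgene was given. The paper speaks of biological replicates, and the labels do not say whether the libraries of a group came from separate animals, so the p-values measure the spread between these libraries. The comparisons of the first set share controls a to c and are not independent of each other.

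The median total count on genes was 2211861 per library in controls a to c (range 1562034 to 2419241), 2318235 with *E. coli* (1980073 to 2734041), 1719468 with both stimuli (1523808 to 1970637) and 1859508 with IFN-γ alone (1654831 to 2006059). It was 5294968 in controls d to f (3625036 to 6482289) and 5121421 with IL-4 (3827767 to 5909700). Levels are given as CPM, the count scaled to the TMM-normalized total of its library. The detection floor was set at 3 counts, which corresponded to 1.10 to 1.97 CPM in the first set and to 0.463 to 0.828 CPM in the second, which covers counting error only. In each of the 12 libraries of the first set the highest gene count was between 4089 and 4095, just under 4096, which is 4 to the power 6. In the second set it was 87377 to 191131. Levels near such a ceiling are compressed, so the share of 4096 is given for *Cxcl2*, *Cxcl3* and *Cxcl10*, the members with the highest counts, and the sets were compared only in the alternatives that pool all 6 unstimulated libraries or fit all 18 libraries together, which join counts with and without the ceiling. Corrected counts below assume that a gene could be counted at most 4096 times, as with random draws from 4096 labels. The methods name CEL-Seq2, run on purified RNA, as the library protocol. Neither the labels nor the methods state such a limit, or tie the file layouts to a way of preparing the libraries.

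The label of the cells was checked against 12 eosinophil genes, whose summed level was 6095 ± 943 CPM (mean ± SD, n = 3) in controls a to c and 8060.2 ± 753 CPM in controls d to f. It was 5403 ± 516 CPM with *E. coli*, 6540 ± 665 CPM with IFN-γ, 6039 ± 550 CPM with both and 7324 ± 180 CPM with IL-4. The IL-4 libraries (7198 to 7530 CPM) lay under controls d to f (7592 to 8928 CPM). The receptor genes *Csf2rb* and *Ccr3*, the enzyme gene *Alox15* and the lectin gene *Siglecf* were abundant, with *Ccr3* at 1431 ± 246 CPM and *Siglecf* at 1020.4 ± 127 CPM in controls a to c. With both stimuli *Csf2rb* was at 2545 ± 341 CPM. This was above the mean of *Cxcl3* in that group (2339 ± 191 CPM), whose count reached 94.5% of the ceiling. The eosinophil sums of the first set were not corrected for the ceiling and may be limited by it. Genes of the granule proteins differed in level, with *Epx* at 1.43 ± 0.608 CPM and *Prg3* at 1.08 ± 0.294 CPM near the floor in controls a to c. In these libraries *Prg2* was at 29.5 ± 2.75 CPM and *Ear6* at 36.6 ± 8.57 CPM. *Siglecf* fell with *E. coli* (log2 fold change -0.68, adjusted p = 0.000249), with IFN-γ (-0.70, adjusted p = 0.000177) and with both (-1.55, adjusted p = 7.54e-09), and rose with IL-4 (0.39, adjusted p = 0.0383). Of the 8 eosinophil genes with enough counts to be tested in the first set, 2 rose and 2 fell (median log2 fold change -0.16) with *E. coli*, 2 rose and 4 fell (median log2 fold change -0.18) with IFN-γ and 3 rose and 4 fell (median log2 fold change -0.25) with both, and of the 12 tested in the second set, 4 rose and 1 fell (median log2 fold change 0.12) with IL-4. Of all genes tested, 13.5% rose and 16.7% fell with *E. coli*, and 15.6% and 16% did with IFN-γ. With both stimuli 23.9% rose and 25.2% fell, and with IL-4 5.97% and 4.35%. In these bulk libraries, fewer cells of a type and less RNA per cell cannot be told apart.

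All 9 chemokine genes passed the filter on low counts in both sets and were tested with edgeR's quasi-likelihood test across all genes, with Benjamini-Hochberg adjustment and a call at an adjusted p under 0.05. With *E. coli*, 5 of the 9 rose, where 13.5% of the 9883 genes tested rose, and 0 fell, where 16.7% fell. With IFN-γ, 5 rose (15.6% of all genes tested) and 1 fell (16%), and with both stimuli 8 rose (23.9%) and 0 fell (25.2%). With IL-4, 0 rose (5.97% of 10556 genes tested) and 2 fell (4.35%). The median log2 fold change of the 9 genes was 1.92 with *E. coli*, 0.82 with IFN-γ, 3.40 with both and -0.60 with IL-4, beside -0.02, -0.03, -0.04 and 0.000574 over all genes tested. At an unadjusted p under 0.05, 0 fell with *E. coli*, 0 fell with both stimuli and 1, *Cxcl16*, rose with IL-4, and DESeq2 gave 0 for each of these counts. Without control a, or without any of the 3 IFN-γ libraries in turn, the count that fell with IFN-γ was 0. Without control e, 4 fell with IL-4, and without control f, 1 rose. With all 6 unstimulated libraries as a single control group 4 rose with *E. coli*, 2 with IFN-γ, 6 with both and 1 with IL-4.

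**Figure D1:**
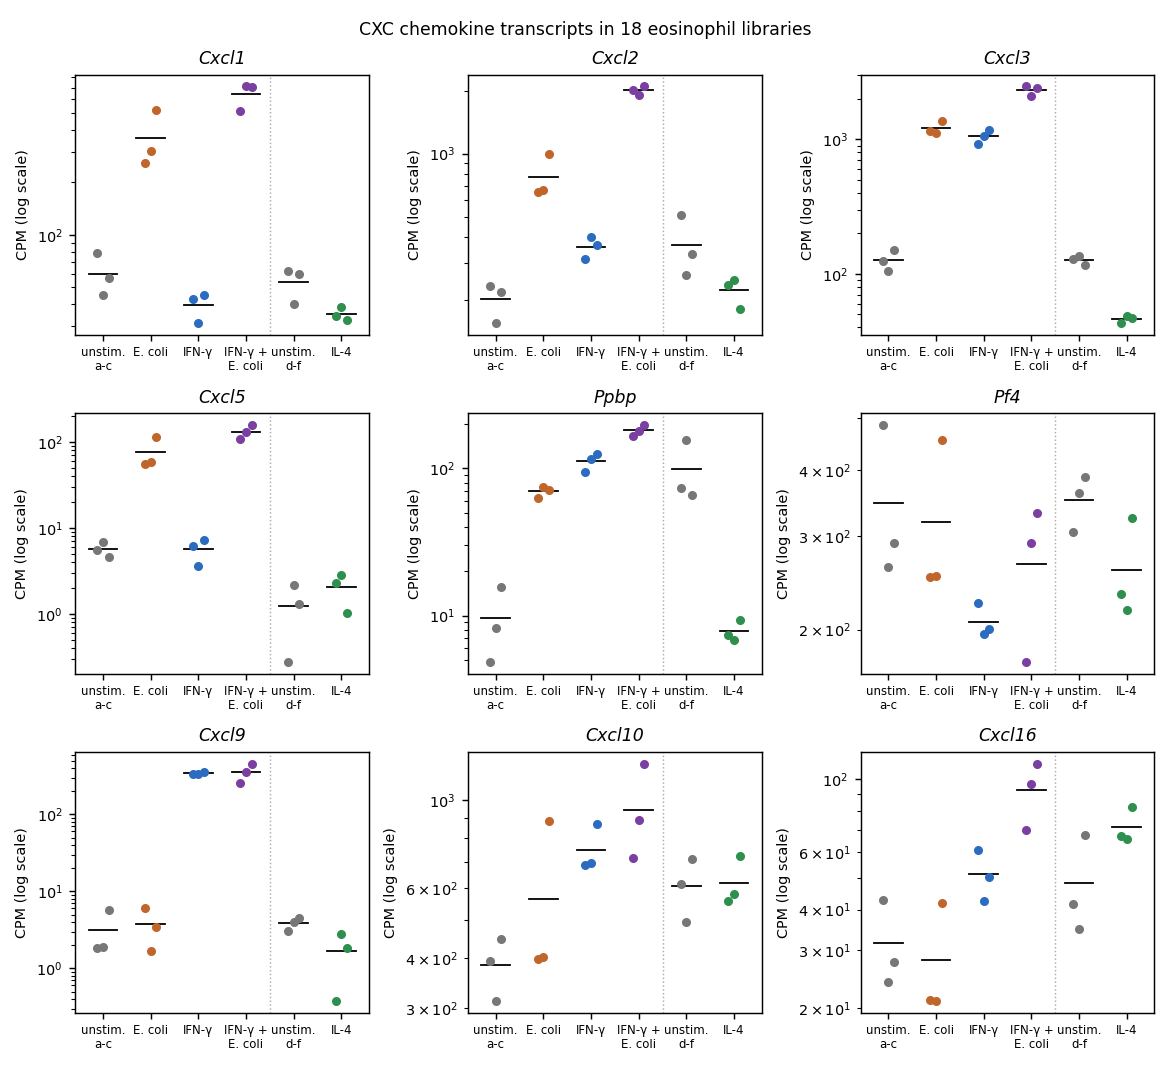
Level of each CXC chemokine gene in each of the 18 libraries, in CPM on a log axis, by group; dots are libraries, black lines are group means (n = 3), and the dotted line separates the 2 sets of files. *Cxcl9* lay between 256 and 450.4 CPM in the 6 libraries with IFN-γ and at 6.12 CPM or lower in the others.

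Summed over the neutrophil attractants *Cxcl1*, *Cxcl2*, *Cxcl3*, *Cxcl5* and *Ppbp*, the level was 405 ± 72.1 CPM (mean ± SD, n = 3) in controls a to c, 2496 ± 503 CPM with *E. coli*, 1573 ± 166 CPM with IFN-γ and 5301 ± 261 CPM with both stimuli. The libraries of these 4 groups did not overlap, with 321 to 446 CPM unstimulated, 1392 to 1719 CPM with IFN-γ, 2194 to 3077 CPM with *E. coli* and 5051 to 5571 CPM with both. In the second set the sum was 648 ± 109 CPM unstimulated and 313 ± 38.6 CPM with IL-4. Most of the sum was *Cxcl2* and *Cxcl3*, whose counts reached 84.9% and 94.5% of 4096 with both stimuli. With counts corrected for that ceiling, a step chosen after seeing the data, it was 322 ± 59.7 CPM in controls a to c, 2875 ± 498 CPM with *E. coli*, 1505 ± 188 CPM with IFN-γ and 8402 ± 943 CPM with both. The interferon-induced ligands *Cxcl9* and *Cxcl10* summed to 388 ± 69.2 CPM unstimulated, 566 ± 281 CPM with *E. coli*, 1096 ± 116 CPM with IFN-γ and 1299.6 ± 357 CPM with both. Here the *E. coli* libraries (404 to 890.2 CPM) overlapped the unstimulated ones (315 to 453 CPM), and the libraries with both stimuli (972 to 1680.3 CPM) overlapped those with IFN-γ (1024 to 1229 CPM). In the second set this sum was 610.3 ± 110.0 CPM unstimulated and 622 ± 90.1 CPM with IL-4, with overlap. The sums were not tested.

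*Cxcl1*, an early neutrophil attractant, was listed at 78.2, 45.00 and 56.99 CPM in controls a, b and c and at 259, 303 and 518 CPM in *E. coli* libraries 1, 2 and 3. IFN-γ libraries held 43.1, 31.3 and 45.1 CPM, and libraries with both stimuli held 516, 711 and 709 CPM. Every library with *E. coli*, alone or with IFN-γ, lay above every library without it. *Cxcl1* rose 5.86-fold with *E. coli* (log2 fold change 2.55, SE 0.24, adjusted p = 1.78e-07) and 10.6-fold with both stimuli (log2 fold change 3.40, SE 0.24, adjusted p = 1.31e-09). With IFN-γ alone its log2 fold change was -0.63, with a 95% interval of -1.20 to -0.05 (adjusted p = 0.0894), and 1 IFN-γ library overlapped the unstimulated range. With both stimuli it was higher than with IFN-γ (log2 fold change 4.03, SE 0.26, adjusted p = 3.01e-09) and than with *E. coli* (log2 fold change 0.85, SE 0.21, adjusted p = 0.00425), although *E. coli* library 3 overlapped the joint group.

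*Cxcl5*, a further ELR ligand, was at 5.59, 6.97 and 4.54 CPM unstimulated and 6.16, 3.59 and 7.19 CPM with IFN-γ, against 56.3, 59.2 and 116 CPM with *E. coli* and 108, 132 and 157 CPM with both. The unstimulated and IFN-γ values rest on 7 to 15 counts per library and overlapped, while the libraries with *E. coli* stood apart from them. *Cxcl5* rose 13.5-fold with *E. coli* (log2 fold change 3.76, SE 0.32, adjusted p = 5.37e-08) and 23.6-fold with both (log2 fold change 4.56, SE 0.31, adjusted p = 7.32e-10). With all 6 unstimulated libraries as a single control group these log2 changes were 4.49 and 5.32. Its log2 fold change with IFN-γ was -0.01, with a 95% interval of -1.06 to 1.04. The joint level exceeded that with *E. coli* (log2 fold change 0.80, SE 0.22, adjusted p = 0.00763), a difference that missed the threshold without *E. coli* library 1 (0.62, adjusted p = 0.0518) or library 2 (0.63, adjusted p = 0.0537).

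*Cxcl2*, which is made by macrophages and neutrophils in response to bacterial products, was at 233, 155 and 218 CPM in controls a, b and c. It reached 655, 668 and 992 CPM with *E. coli*, 315, 400.3 and 364 CPM with IFN-γ and 2009.9, 1906 and 2095 CPM with both stimuli. The 4 groups did not overlap, in the order unstimulated, IFN-γ, *E. coli* and both. *Cxcl2* rose with each stimulus, 3.79-fold with *E. coli* (log2 fold change 1.92, SE 0.17, adjusted p = 9.28e-08), 1.77-fold with IFN-γ (log2 fold change 0.82, SE 0.17, adjusted p = 0.000946) and 9.86-fold with both (log2 fold change 3.30, SE 0.18, adjusted p = 2.72e-11). The changes with all 6 unstimulated libraries as a single control group were 1.18 with *E. coli* (adjusted p = 0.021), 0.09 with IFN-γ (adjusted p = 0.863) and 2.60 with both (adjusted p = 1.87e-05). The count of *Cxcl2* reached 84.9% of 4096 in a library with both stimuli and 49.0% with *E. coli*.

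*Cxcl3* was the ELR gene with the highest level in the joint group, at 2481, 2121 and 2414 CPM in its 3 libraries. It was at 124, 106 and 152 CPM unstimulated, 1161, 1114 and 1380.0 CPM with *E. coli* and 933, 1057 and 1177 CPM with IFN-γ. Every stimulated library was above every unstimulated one, and the *E. coli* and IFN-γ libraries overlapped each other. *Cxcl3* rose 9.51-fold with *E. coli* (log2 fold change 3.25, SE 0.15, adjusted p = 2.67e-11), 8.24-fold with IFN-γ (log2 fold change 3.04, SE 0.15, adjusted p = 2.47e-11) and 18.3-fold with both (log2 fold change 4.19, SE 0.16, adjusted p = 4.92e-13). Its count stood at up to 81.3% of 4096 with *E. coli* alone, 50.4% with IFN-γ alone and 94.5% with both. With counts corrected for that ceiling, a step chosen after seeing the data, the log2 fold change of *Cxcl3* was 4.04, 3.42 and 5.51 and that of *Cxcl2* was 2.25, 0.87 and 4.18 for the same 3 comparisons.

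*Ppbp*, which encodes the precursor of a platelet-stored ELR ligand, was at 4.84, 8.24 and 15.7 CPM in controls a, b and c. With *E. coli* it was at 63.2, 74.9 and 71.1 CPM, with IFN-γ at 95.2, 115 and 125 CPM and with both at 167, 181 and 197 CPM. The 4 groups did not overlap, and here IFN-γ stood above *E. coli* (log2 fold change 0.68, SE 0.18, adjusted p = 0.008). *Ppbp* rose 7.24-fold with *E. coli* (log2 fold change 2.86, SE 0.24, adjusted p = 5.58e-08), 11.6-fold with IFN-γ (log2 fold change 3.53, SE 0.24, adjusted p = 1.61e-09) and 18.8-fold with both (log2 fold change 4.23, SE 0.23, adjusted p = 3.61e-11). These folds rest on controls a to c, since *Ppbp* was at 73.04, 157 and 65.9 CPM in controls d, e and f. Without control c the log2 changes with *E. coli*, IFN-γ and both were 3.49, 4.17 and 4.87. With all 18 libraries in a single fit, IFN-γ over *E. coli* missed the threshold (0.69, adjusted p = 0.0673). With all 6 unstimulated libraries as a single control group the log2 change with *E. coli* was -0.02 (adjusted p = 0.987), with IFN-γ 0.68 (adjusted p = 0.535) and with both 1.40 (adjusted p = 0.139). The difference between the unstimulated libraries cannot be told apart from the difference between the file sets.

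The ELR genes differed in which of the single stimuli gave the higher level. *Cxcl1* was lower with IFN-γ than with *E. coli* (log2 fold change -3.18, SE 0.25, adjusted p = 1.59e-08), as were *Cxcl5* (log2 fold change -3.77, SE 0.33, adjusted p = 5.90e-08) and *Cxcl2* (log2 fold change -1.10, SE 0.16, adjusted p = 4.32e-05). For *Cxcl3* the difference was -0.21, with a 95% interval of -0.49 to 0.08 (adjusted p = 0.288), and with counts corrected for the ceiling it was -0.62 (adjusted p = 0.0018). Of all 9 genes, 3 were higher with IFN-γ than with *E. coli* (14.1% of all genes tested), namely *Cxcl9*, *Ppbp* and *Cxcl16*, and 3 were lower (11.5%). The median difference of the 9 genes was -0.21 on the log2 scale, beside -0.02 over all genes tested.

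**Figure D2:**
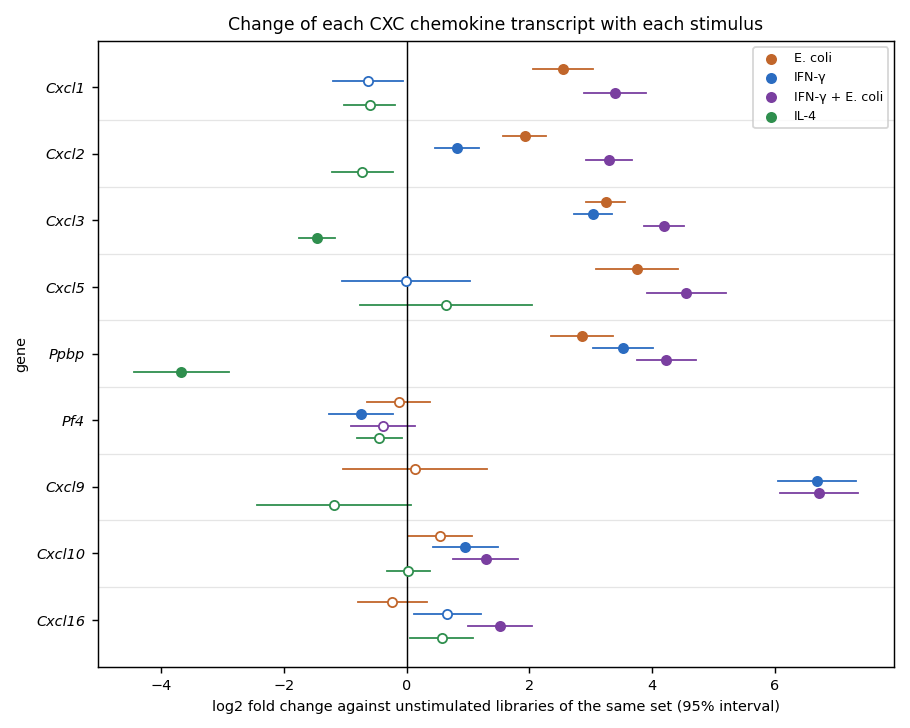
Log2 fold change of each CXC chemokine gene for each stimulus against the unstimulated libraries of its set, with 95% intervals as lines; filled points passed the test at an adjusted p under 0.05 and open points did not. The ELR genes lie above 0 with *E. coli* and *Cxcl9* lies above 6 with IFN-γ, alone or with *E. coli*.

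*Cxcl9*, a ligand of Cxcr3 named for its induction by IFN-γ, was at 1.86, 1.90 and 5.78 CPM in controls a, b and c and at 6.12, 1.67 and 3.46 CPM with *E. coli*. With IFN-γ it was at 339, 339 and 358 CPM and with both stimuli at 256, 357 and 450.4 CPM. All 6 libraries with IFN-γ stood far above the 6 without it, which held 3 to 15 counts each. *Cxcl9* rose 103-fold with IFN-γ (log2 fold change 6.69, SE 0.30, adjusted p = 9.47e-12) and 106-fold with both (log2 fold change 6.73, SE 0.30, adjusted p = 3.12e-12). Without control c, whose count was above those of the other 2 controls, the log2 changes were 7.48 and 7.52. With *E. coli* alone its log2 fold change was 0.14, with a 95% interval of -1.04 to 1.32, and adding *E. coli* to IFN-γ gave a difference of 0.04, with a 95% interval of -0.34 to 0.42.

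*Cxcl10*, the other interferon-induced ligand, was already well above the floor without stimulation, at 395, 313 and 447 CPM in controls a, b and c. It was at 686, 695 and 871 CPM with IFN-γ, 716, 889 and 1229.9 CPM with both stimuli and 398, 402 and 887 CPM with *E. coli*. The libraries with IFN-γ lay above the unstimulated ones, and *E. coli* library 3 stood above *E. coli* libraries 1 and 2 and above all IFN-γ libraries. *Cxcl10* rose 1.94-fold with IFN-γ (log2 fold change 0.96, SE 0.25, adjusted p = 0.00675) and 2.45-fold with both (log2 fold change 1.29, SE 0.25, adjusted p = 0.000317). Its count reached 43.8% of 4096 with *E. coli*, 33.1% with IFN-γ alone and 45.5% with both. Both calls were lost with all 6 unstimulated libraries as a single control group, at 0.37 (adjusted p = 0.451) with IFN-γ and 0.72 (adjusted p = 0.0978) with both. With *E. coli* the log2 fold change was 0.54, with a 95% interval of 0.02 to 1.06 (adjusted p = 0.112), and without *E. coli* library 1 (0.74, adjusted p = 0.0418) or library 2 (0.74, adjusted p = 0.0429) it passed the threshold, whereas without *E. coli* library 3 it was 0.06 (adjusted p = 0.852).

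The level of *Cxcl10* with IFN-γ differed from that with *E. coli* by 0.42, with a 95% interval of -0.10 to 0.94 on the log2 scale (adjusted p = 0.234), and without *E. coli* library 3 by 0.91 (adjusted p = 0.00124). It also passed the test with the replicate number as a block. With both stimuli *Cxcl10* was higher than with *E. coli* (log2 fold change 0.75, SE 0.25, adjusted p = 0.0254). That difference was 1.24 without *E. coli* library 3, and it missed the threshold without *E. coli* library 1 (0.55, adjusted p = 0.133), *E. coli* library 2 (0.56, adjusted p = 0.129) or library 3 of the joint group (0.52, adjusted p = 0.118). It also missed the threshold by DESeq2 (0.77, adjusted p = 0.0866) and with only the 6 libraries of these groups in the fit (0.75, adjusted p = 0.0711). Over IFN-γ alone the joint group differed by 0.33, with a 95% interval of -0.18 to 0.85.

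Both stimuli together gave higher levels than either stimulus alone for most of the 9 genes. Against IFN-γ alone, 6 were higher (6.25% of all genes tested) and 0 were lower (5.98%), with a median log2 difference of 0.86 beside 0.00551 over all genes tested. Against *E. coli* alone, 8 were higher (17.5%) and 0 were lower (15.3%), with a median of 0.94 beside -0.02. At an unadjusted p under 0.05, and by DESeq2, the counts that were lower were also 0 in both comparisons. *Cxcl2* differed from IFN-γ alone by 2.48 (adjusted p = 8.90e-09) and from *E. coli* alone by 1.38 (adjusted p = 2.10e-06), and *Cxcl3* by 1.15 (adjusted p = 1.16e-05) and 0.94 (adjusted p = 2.35e-05). *Cxcl5* differed from IFN-γ alone by 4.57 (adjusted p = 1.35e-08). *Ppbp* differed from *E. coli* alone by 1.38 (adjusted p = 5.45e-06) and from IFN-γ alone by 0.70 (adjusted p = 0.0109), and the latter missed the threshold without IFN-γ library 1 (0.60, adjusted p = 0.0777) and with all 18 libraries in a single fit (0.73, adjusted p = 0.0815).

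Whether the joint effect differed from the single log2 effects added together was tested as an interaction. Of the 9 genes, *Cxcl1* departed upward, 1 gene where 2.58% of all genes tested did, and *Cxcl3* and *Ppbp* departed downward, 2 genes where 2.04% did. The joint change of *Cxcl1* exceeded the sum by 1.48 (SE 0.34, adjusted p = 0.0173). *Cxcl3* departed from the sum by -2.10 (SE 0.20, adjusted p = 4.56e-06) and *Ppbp* by -2.15 (SE 0.30, adjusted p = 0.000422), both against controls a to c. With all 6 unstimulated libraries as a single control group, an alternative chosen after seeing the data, the departure of *Ppbp* turned to 0.75 (adjusted p = 0.811), that of *Cxcl1* missed the threshold (1.58, adjusted p = 0.0625) and that of *Cxcl3* passed it (-1.88, adjusted p = 0.00265). For *Cxcl2* the departure was 0.55, with a 95% interval of 0.07 to 1.04 (adjusted p = 0.217), for *Cxcl16* 1.10, with a 95% interval of 0.34 to 1.86 (adjusted p = 0.0974), and for *Cxcl9* -0.10, with a 95% interval of -1.33 to 1.13. The median over the 9 genes was 0.49, beside 0.00425 over all genes tested.

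Some of these departures depended on single libraries, and the call of *Cxcl2* depended on the ceiling. The departure of *Ppbp* was -2.79 without control c. The call of *Cxcl1* was lost without control a (1.23, adjusted p = 0.0843), IFN-γ library 2 (1.29, adjusted p = 0.0639) or library 2 of the joint group (1.39, adjusted p = 0.0501), so that 0 genes departed upward. Without *E. coli* library 3, *Cxcl2* (0.76, adjusted p = 0.0300) and *Cxcl16* (1.46, adjusted p = 0.00850) passed as well, giving 3 genes. With counts corrected for the ceiling, *Cxcl2* departed upward by 1.06 (adjusted p = 0.0202), and the departures were 1.53 for *Cxcl1*, -1.96 for *Cxcl3* and -2.16 for *Ppbp*.

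**Figure D3:**
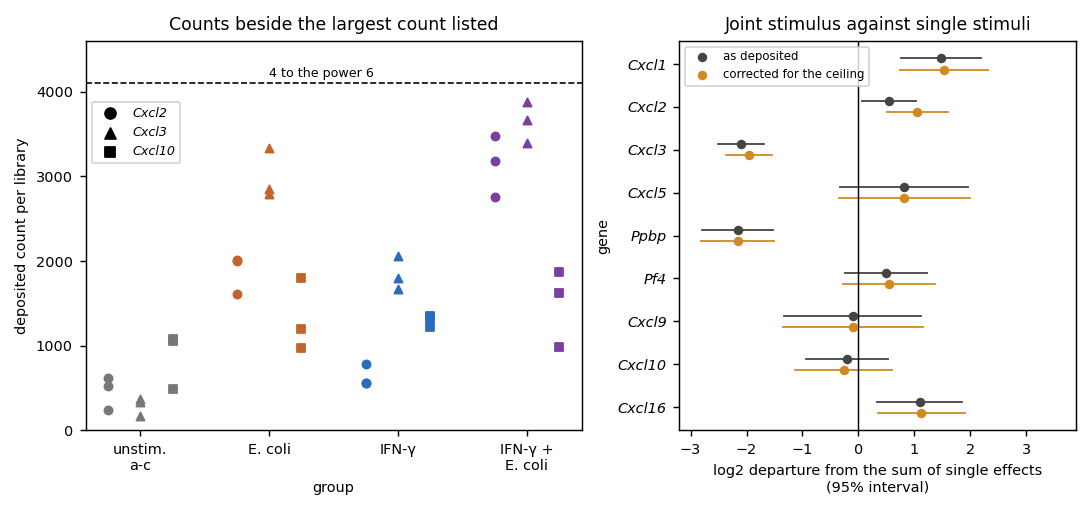
Left, deposited counts of *Cxcl2*, *Cxcl3* and *Cxcl10* in the 12 libraries of the first set, with a dashed line at 4 to the power 6. Right, log2 departure of the joint change from the single changes added up, for each gene, with 95% intervals as lines, from deposited and from corrected counts; *Cxcl3* lies at -2.10 and -1.96.

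With IL-4, *Cxcl3* and *Ppbp* fell. *Cxcl3* was at 129.7, 136 and 116 CPM in controls d, e and f and at 43.2, 48.4 and 47.2 CPM in IL-4 libraries 1, 2 and 3. *Ppbp*, at 73.04, 157 and 65.9 CPM unstimulated, was at 7.42, 6.81 and 9.33 CPM with IL-4. The groups did not overlap for either gene, and control e held the highest *Ppbp* level of the 6 libraries. The log2 fold change was -1.46 for *Cxcl3* (SE 0.13, adjusted p = 0.000131) and -3.67 for *Ppbp* (SE 0.35, adjusted p = 0.000186). The change of *Ppbp* was -2.77 (adjusted p = 0.0481) with all 6 unstimulated libraries as a single control group. With both stimuli of the other set these genes had risen, and that contrast between the sets was not tested.

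The other ELR genes did not pass the test with IL-4. *Cxcl1* was at 61.9, 40.1 and 59.5 CPM unstimulated and 34.4, 38.5 and 32.7 CPM with IL-4, and *Cxcl2* at 509, 263 and 329.9 CPM and 235, 250.2 and 181 CPM. For both genes every IL-4 library lay under every unstimulated one. The log2 fold change was -0.60, with a 95% interval of -1.02 to -0.19, for *Cxcl1* (adjusted p = 0.0683) and -0.72, with a 95% interval of -1.22 to -0.23, for *Cxcl2* (adjusted p = 0.0674). Without control e both passed, *Cxcl1* at -0.78 (adjusted p = 0.00192) and *Cxcl2* at -0.91 (adjusted p = 0.00162), and without control d *Cxcl2* was at -0.42 (adjusted p = 0.137). *Cxcl5* held 1 to 17 counts per library in this set, with a log2 fold change of 0.64, with a 95% interval of -0.76 to 2.04. *Cxcl9* held 2 to 24 counts, with -1.19, with a 95% interval of -2.45 to 0.07, and *Cxcl10* was at 616, 492 and 711 CPM unstimulated and 558, 579.7 and 723 CPM with IL-4, with 0.03, with a 95% interval of -0.31 to 0.38.

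*Pf4*, a platelet chemokine without the ELR residues, did not rise in any of the comparisons. It was at 485, 262 and 291 CPM in controls a, b and c, 250.9, 252 and 455 CPM with *E. coli*, 224, 196 and 200.1 CPM with IFN-γ and 174, 291 and 331 CPM with both stimuli. Control a and *E. coli* library 3 were high, and the 3 IFN-γ libraries were below all unstimulated ones. *Pf4* fell with IFN-γ (log2 fold change -0.75, SE 0.25, adjusted p = 0.0286), and this call was lost without control a (-0.42, adjusted p = 0.245), IFN-γ library 1 (-0.80, adjusted p = 0.0525), IFN-γ library 2 (-0.68, adjusted p = 0.0924) or IFN-γ library 3 (-0.70, adjusted p = 0.0888), and by DESeq2 (-0.72, adjusted p = 0.118). The log2 fold change was -0.13, with a 95% interval of -0.64 to 0.38, with *E. coli* and -0.39, with a 95% interval of -0.90 to 0.13, with both. IFN-γ against *E. coli* gave -0.62, with a 95% interval of -1.14 to -0.10 (adjusted p = 0.0766), which was -0.77 without *E. coli* library 1 (adjusted p = 0.04999) or library 2 (adjusted p = 0.04989) and -0.28 without library 3 (adjusted p = 0.418). This comparison also passed with the replicate number as a block.

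In the second set *Pf4* was at 305, 361 and 388 CPM unstimulated and 234, 218 and 324 CPM with IL-4. The groups overlapped through IL-4 library 3. The log2 fold change was -0.45, with a 95% interval of -0.81 to -0.08 (adjusted p = 0.123), and without IL-4 library 3 it was -0.65 (adjusted p = 0.0451).

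Because *Pf4* and *Ppbp* are platelet genes, a list of 12 platelet and megakaryocyte genes was measured beside them. Its summed level was 200.5 ± 22.2 CPM in controls a to c, 127 ± 16.7 CPM with *E. coli*, 111 ± 11.9 CPM with IFN-γ and 82.6 ± 8.86 CPM with both. It was 305 ± 19.02 CPM in controls d to f and 362 ± 26.7 CPM with IL-4. The most abundant gene was *Itgb3* in controls a to c (106 ± 9.99 CPM, beside 91.4 ± 12.8 CPM for *Itga2b*) and *Itga2b* in the other groups, and *Gp1bb*, *Gp9* and *Tubb1* were at 0 in all 18 libraries. In the first set 6 of the 12 genes were at 0 in every library, and in the second set 4 were. *Itgb3*, an integrin gene that other leukocytes also express, fell with *E. coli* (-2.04, adjusted p = 2.38e-08), IFN-γ (-1.52, adjusted p = 6.78e-07) and both (-3.16, adjusted p = 1.87e-10), where *Ppbp* rose. *Itga2b* fell with both (-0.40, adjusted p = 0.0343), and its changes with *E. coli* (0.14, adjusted p = 0.495) and IFN-γ (-0.34, adjusted p = 0.0951) did not pass the test. These were the only platelet genes with enough counts to be tested in the first set.

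*Cxcl16*, whose product is both an adhesion molecule and a soluble ligand, was at 42.8, 24.1 and 27.7 CPM in controls a, b and c and at 21.2, 21.1 and 41.97 CPM with *E. coli*. It was at 61.01, 42.5 and 50.4 CPM with IFN-γ and 70.1, 96.98 and 111 CPM with both stimuli. The joint group lay above all other libraries of the set, and the IFN-γ group overlapped the unstimulated one by a narrow margin. *Cxcl16* rose 2.89-fold with both (log2 fold change 1.53, SE 0.25, adjusted p = 5.20e-05). With *E. coli* its log2 fold change was -0.23, with a 95% interval of -0.80 to 0.33. With IFN-γ it was 0.67, with a 95% interval of 0.12 to 1.21 (adjusted p = 0.0582), and it passed without control a (0.97, adjusted p = 0.0220) or IFN-γ library 2 (0.82, adjusted p = 0.0412).

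*Cxcl16* was also higher with both stimuli than with *E. coli* (log2 fold change 1.76, SE 0.25, adjusted p = 2.17e-05). Over IFN-γ alone the joint level was higher (log2 fold change 0.86, SE 0.24, adjusted p = 0.025), a call lost without IFN-γ library 2 (0.73, adjusted p = 0.111), IFN-γ library 3 (0.85, adjusted p = 0.0631), or library 2 (0.83, adjusted p = 0.0843) or 3 (0.71, adjusted p = 0.0724) of the joint group. IFN-γ alone was above *E. coli* alone (log2 fold change 0.90, SE 0.26, adjusted p = 0.0154), a call lost without *E. coli* library 1 (0.74, adjusted p = 0.0768), *E. coli* library 2 (0.72, adjusted p = 0.0884) or IFN-γ library 1 (0.75, adjusted p = 0.0820). With IL-4 *Cxcl16* was at 66.96, 65.8 and 82.4 CPM against 41.7, 34.95 and 67.8 CPM unstimulated, with overlap through control f. The log2 fold change was 0.57, with a 95% interval of 0.06 to 1.08 (adjusted p = 0.152), without control f it was 0.90 (adjusted p = 0.0208), without control e 0.36 (adjusted p = 0.239), and with all 6 unstimulated libraries as a single control group 0.996 (adjusted p = 0.0476). Of the proteases that release the CXCL16 ectodomain, *Adam17* rose with *E. coli* (0.38, adjusted p = 0.0284), IFN-γ (1.01, adjusted p = 5.51e-06) and both (1.16, adjusted p = 4.69e-07), and *Adam10* rose with *E. coli* (0.64, adjusted p = 0.000922). With IL-4 their log2 changes were -0.14 and 0.08, and neither passed.

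Other cells of the peritoneal cavity can make these chemokines, so their marker lists were measured in the same libraries. The paper describes the cells that remained beside the purified eosinophils as mostly lymphocytes. The 13 macrophage and monocyte genes summed to 3722 ± 422 CPM in controls a to c, 2997 ± 709 CPM with *E. coli*, 4801 ± 306 CPM with IFN-γ and 5087 ± 347 CPM with both. They summed to 27622 ± 335 CPM in controls d to f and 27134 ± 403 CPM with IL-4, and *Ly6c2* was the most abundant gene throughout. *Ly6c2* was at 1920 ± 555 CPM in controls a to c and 2285 ± 276 CPM with IFN-γ, where counts stay under 4096. It was at 23019 ± 709 CPM in controls d to f, without that ceiling. The sums of these genes in the first set were not corrected for the ceiling and may be limited by it. Of the 12 tested in the first set, 4 fell and 8 did not pass (median log2 fold change -0.45) with *E. coli*, 3 rose and 1 fell (median log2 fold change 0.26) with IFN-γ, 4 rose and 1 fell (median log2 fold change 0.24) with both and 2, *Marco* and *Timd4*, departed upward in the interaction. Of the 13 tested in the second set, 6 fell and 7 did not pass (median log2 fold change -0.29) with IL-4. Of all genes tested, 16.7% fell with *E. coli*, and 15.6% rose and 16% fell with IFN-γ. With both stimuli 23.9% rose and 25.2% fell, with IL-4 4.35% fell, and in the interaction 2.58% departed upward. *Marco*, a scavenger receptor gene of macrophages, fell with *E. coli* (-1.72, adjusted p = 4.61e-07) and with IL-4 (-2.77, adjusted p = 1.59e-05) and rose with IFN-γ (1.04, adjusted p = 4.58e-05) and both (1.33, adjusted p = 1.13e-06). *Csf1r*, the gene of the receptor for macrophage colony-stimulating factor, rose with IFN-γ (0.31, adjusted p = 0.0286) and fell with IL-4 (-0.68, adjusted p = 0.0118). The summed level was above all unstimulated libraries with IFN-γ, where *Cxcl3* and *Ppbp* rose, and overlapped them with *E. coli*, where these genes rose too, and its part in the chemokine results was not tested.

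The 11 neutrophil genes summed to 635 ± 74.8 CPM in controls a to c, 484 ± 32.1 CPM with *E. coli*, 726 ± 50.3 CPM with IFN-γ and 604 ± 38.7 CPM with both, and to 1885 ± 165 CPM in controls d to f and 808 ± 30.3 CPM with IL-4. *Retnlg* was the most abundant of them in every group and made up most of the sum in controls and with IL-4. It stood at 584 ± 79.7 CPM in controls a to c, 1855 ± 172 CPM in controls d to f and 755 ± 43.6 CPM with IL-4. Of the 5 neutrophil genes tested in the first set, 3 rose and 1 fell with *E. coli*, 3 rose and 1 fell with IFN-γ, and 3 rose and 2 fell with both. Of the 6 tested in the second set, 1 rose and 2 fell with IL-4. Among all genes tested, 13.5% rose and 16.7% fell with *E. coli*, and 15.6% and 16% did with IFN-γ. With both stimuli 23.9% rose and 25.2% fell, and with IL-4 5.97% and 4.35%. *S100a8* rose with *E. coli* (3.06, adjusted p = 1.79e-05), IFN-γ (2.20, adjusted p = 0.00106) and both (2.71, adjusted p = 5.16e-05), as did *Mmp8*, by 1.58, 1.94 and 4.36. *Ly6g* rose with IFN-γ (2.27, adjusted p = 2.16e-05) from 4.12 ± 2.69 to 21.7 ± 2.76 CPM and with both (1.63, adjusted p = 0.000693). *Retnlg* fell with *E. coli* (-1.02, adjusted p = 2.14e-06) and both (-0.90, adjusted p = 3.97e-06). *Cxcr2* rose with *E. coli* (1.73, adjusted p = 6.63e-07) and fell with IFN-γ (-1.76, adjusted p = 3.74e-05) and both (-0.73, adjusted p = 0.0137). With IL-4, where *Cxcl3* and *Ppbp* fell, *Retnlg* (-1.30, adjusted p = 0.000113) and *Mmp8* (-1.59, adjusted p = 0.0441) fell and *Cxcr2* rose (3.09, adjusted p = 0.000204). *Ly6g*, *S100a8* and *S100a9* did not pass with IL-4. *S100a8* departed downward in the interaction (-2.55, adjusted p = 0.0126), as *Cxcl3*, *Ppbp* and 2.04% of all genes tested did. The departures of *Mmp8* (0.83), *Retnlg* (0.04), *Ly6g* (-0.24) and *Cxcr2* (-0.70) did not pass.

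The 8 B cell genes summed to 184 ± 55.03 CPM in controls a to c, 56.7 ± 20.3 CPM with *E. coli*, 75.9 ± 22.5 CPM with IFN-γ and 134 ± 7.14 CPM with both, and to 32.03 ± 11.8 CPM in controls d to f and 67.4 ± 6.21 CPM with IL-4, with *Ighm* the most abundant. Of the 5 tested in the first set, 5 fell with *E. coli* (median log2 fold change -1.82), where 16.7% of all genes tested fell. IFN-γ alone lowered 4 of them (median -1.26), where 16% of all genes tested fell. Under the joint stimulus 5 did not pass (median -0.43), where 25.2% of all genes tested fell. In the interaction 5 departed upward (median 2.68), where 2.58% of all genes tested did. This was the direction in which *Cxcl1* departed. With IL-4, *Cd79b*, *Ms4a1* and *Ighm* rose, 3 of the 4 tested in the second set (median 1.24), where 5.97% of all genes tested rose.

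The summed levels of the remaining lists in controls a to c and d to f were 36.4 ± 11.1 and 102 ± 13.5 CPM for 10 mesothelial and stromal genes, 42.8 ± 12.2 and 82.7 ± 6.31 CPM for 4 erythroid genes, 22.7 ± 2.31 and 11.96 ± 3.55 CPM for 7 dendritic cell genes, 8.96 ± 1.61 and 8.05 ± 1.71 CPM for 7 mast cell genes and 6.33 ± 2.61 and 4.84 ± 0.934 CPM for 9 T and NK cell genes. In the stimulated groups of the first set, with *E. coli*, IFN-γ alone and both in this order, the mesothelial and stromal sum was 98.8 ± 51.3, 65.97 ± 6.59 and 187 ± 88.2 CPM, nearly all of it *Pdpn*, which rose in each. The erythroid sum was 59.99 ± 28.03, 73.3 ± 31.8 and 97.99 ± 13.4 CPM, and with both stimuli all 3 erythroid genes tested rose, *Hba-a1* by 1.22 (adjusted p = 0.00796), *Hbb-bs* by 1.24 (adjusted p = 0.00241) and *Hbb-bt* by 1.30 (adjusted p = 0.0444). The mast cell sum was 18.2 ± 15.1, 21.3 ± 10.1 and 65.6 ± 21.9 CPM, and both genes tested, *Tpsb2* (2.65, adjusted p = 0.000118) and *Cma1* (3.45, adjusted p = 2.62e-05), rose with both stimuli, and *Tpsb2* rose with IFN-γ (1.51, adjusted p = 0.0327). For dendritic cells the sum was 12.7 ± 4.16, 29.5 ± 8.399 and 33.5 ± 8.22 CPM, and *Ccr7*, the gene tested, fell with *E. coli* (-1.60, adjusted p = 0.00289) and rose with both (0.87, adjusted p = 0.0224), with an upward departure in the interaction (1.80, adjusted p = 0.0332). For T and NK cells it was 5.08 ± 0.976, 4.56 ± 0.0702 and 5.58 ± 1.90 CPM. Of all genes tested, 23.9% rose with both stimuli. With IL-4 the sums were 81.7 ± 14.99 CPM for mesothelial and stromal, 70.7 ± 10.1 for erythroid, 19.02 ± 5.28 for dendritic, 16.4 ± 7.88 for mast and 3.82 ± 2.81 CPM for T and NK cell genes. Of these lists, *Hbb-bt* (-0.84, adjusted p = 0.0466) and *Pdpn* (-0.72, adjusted p = 0.0344) fell with IL-4, and the dendritic cell gene *Xcr1* rose (1.34, adjusted p = 0.042). Their part in the changes of the chemokine genes was not tested.

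Of 8 receptor genes for CXC ligands, *Cxcr2* and *Cxcr4* had enough counts to be tested, and *Cxcr1*, *Cxcr3*, *Cxcr5*, *Cxcr6*, *Ackr1* and *Ackr3* held 8 counts or fewer in every library. *Cxcr2*, the receptor of the ELR ligands, was at 26.2 ± 3.72 CPM in controls a to c and rose to 88.5 ± 7.83 CPM with *E. coli* (log2 fold change 1.73, adjusted p = 6.63e-07). It fell to 7.78 ± 1.92 CPM with IFN-γ (-1.76, adjusted p = 3.74e-05) and to 16.1 ± 6.02 CPM with both (-0.73, adjusted p = 0.0137), whereas its ligand genes *Cxcl1*, *Cxcl2*, *Cxcl3* and *Cxcl5* were highest with both. With IL-4 *Cxcr2* rose from 3.76 ± 1.22 to 32.1 ± 9.37 CPM (3.09, adjusted p = 0.000204). *Cxcr4*, the receptor of CXCL12, rose with IFN-γ (1.02, adjusted p = 8.08e-07), both stimuli (1.21, adjusted p = 4.00e-08) and IL-4 (1.85, adjusted p = 2.63e-05).

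Of 7 other CXC and CX3C ligand genes, 3 were tested in the first set and 4 in the second set. *Cxcl11*, the gene next in the interferon-induced group, rose with IFN-γ (1.06, adjusted p = 0.0157) and with both stimuli (0.83, adjusted p = 0.0413), from 25.4 ± 10.4 CPM to 55.2 ± 1.49 and 46.7 ± 16.7 CPM. *Cxcl13*, a B cell attractant, fell with *E. coli* (-1.28, adjusted p = 0.000688), IFN-γ (-2.52, adjusted p = 1.65e-06), both (-2.41, adjusted p = 1.25e-06) and IL-4 (-0.67, adjusted p = 0.0397). With IL-4, *Cxcl14* fell (-1.33, adjusted p = 0.00679) and *Cxcl12* rose (1.78, adjusted p = 0.0255) at 4.98 ± 0.186 CPM.

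Genes of the routes that lead to these ligands were counted beside them. For comparison, 13.5% of all genes tested rose and 16.7% fell with *E. coli*, 15.6% and 16% did with IFN-γ, 23.9% and 25.2% with both and 5.97% and 4.35% with IL-4. Of 20 genes of the LPS and NF-κB route, which turns on ELR chemokine genes in many cells, 10 rose and 10 did not pass (median log2 fold change 0.42) with *E. coli*, 10 rose and 3 fell (median log2 fold change 0.39) with IFN-γ, 12 rose and 1 fell (median log2 fold change 0.86) with both and 4 rose and 1 fell (median log2 fold change -0.11) with IL-4. *Nfkbiz*, a nuclear NF-κB regulator, rose with *E. coli* (2.35, adjusted p = 1.17e-09) and with both (3.07, adjusted p = 7.56e-12), and *Cd14*, the LPS co-receptor gene, rose with both (1.72, adjusted p = 1.36e-06). Of 10 genes of the IFN-γ route, 3 rose and 3 fell (median log2 fold change -0.02) with *E. coli*, 4 rose and 6 did not pass (median log2 fold change 0.36) with IFN-γ, 6 rose and 1 fell (median log2 fold change 0.81) with both and 6 rose and 4 did not pass (median log2 fold change 0.57) with IL-4. The transcription factor gene *Irf1* fell with *E. coli* (-0.76, adjusted p = 1.52e-05) and rose with IFN-γ (2.08, adjusted p = 2.47e-11) and with IL-4 (0.97, adjusted p = 0.000782), where *Cxcl9* and *Cxcl10* did not pass the test.

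Chemokine transcripts are short-lived, and 8 genes whose products destabilise or stabilise them were counted as well, beside 13.5% of all genes tested that rose with *E. coli*, 15.6% with IFN-γ, 23.9% with both and 5.97% with IL-4, and 16.7%, 16%, 25.2% and 4.35% that fell. Of these 8, 4 rose and 1 fell (median log2 fold change 0.40) with *E. coli*, 2 rose and 6 did not pass (median log2 fold change 0.29) with IFN-γ, 5 rose and 3 did not pass (median log2 fold change 0.52) with both and 1 rose and 7 did not pass (median log2 fold change 0.11) with IL-4. *Zc3h12a*, which encodes an RNase that cuts cytokine transcripts, rose with *E. coli* (1.56, adjusted p = 3.90e-07) and both (1.65, adjusted p = 9.04e-08). *Zfp36*, whose product binds AU-rich elements and speeds decay, fell with *E. coli* (-0.56, adjusted p = 0.00504). Of 8 genes of the IL-4 route, 3 rose and 5 did not pass (median log2 fold change 0.15) with IL-4, with *Socs1* at 1.52 (adjusted p = 9.61e-05) and *Irf4* at 2.71 (adjusted p = 0.00428).

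The genes whose level followed each chemokine most closely over the 12 libraries of the first set were found by Pearson correlation of log2 CPM among 9883 genes. The libraries of a group share their stimulus, so these values describe a shared pattern over 4 groups. The closest gene was *Csf3* for *Cxcl1* (r = 0.991), *Il6* for *Cxcl2* (r = 0.987), *Slc7a11* for *Cxcl3* (r = 0.992), *Ifitm2* for *Cxcl5* (r = 0.993) and *P4ha1* for *Ppbp* (r = 0.986). For the others it was *Tlr6* for *Cxcl9* (r = 0.992), *Myo1e* for *Cxcl10* (r = 0.970), *Fpr2* for *Cxcl16* (r = 0.982) and *Msr1* for *Pf4* (r = 0.890). *Msr1* is a macrophage scavenger receptor gene.

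The genes lie in 3 places of the mouse genome (GRCm38, GENCODE M21). *Cxcl5*, *Ppbp*, *Pf4*, *Cxcl3*, *Cxcl1* and *Cxcl2* lie on the plus strand of chromosome 5 within 146579 bases, at chr5:90759360-90905938, and *Pf4* stands between *Ppbp* and *Cxcl3*. *Cxcl9* (chr5:92321347-92328079) and *Cxcl10* (chr5:92346638-92348889) lie on the minus strand of the same chromosome, 1415409 bases past *Cxcl2*. *Cxcl16* is at chr11:70453983-70459984 on the minus strand. Neighbours did not move together throughout, since *Pf4* fell or did not pass the test where *Ppbp* and *Cxcl3* on its flanks rose.

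**Figure D4:**
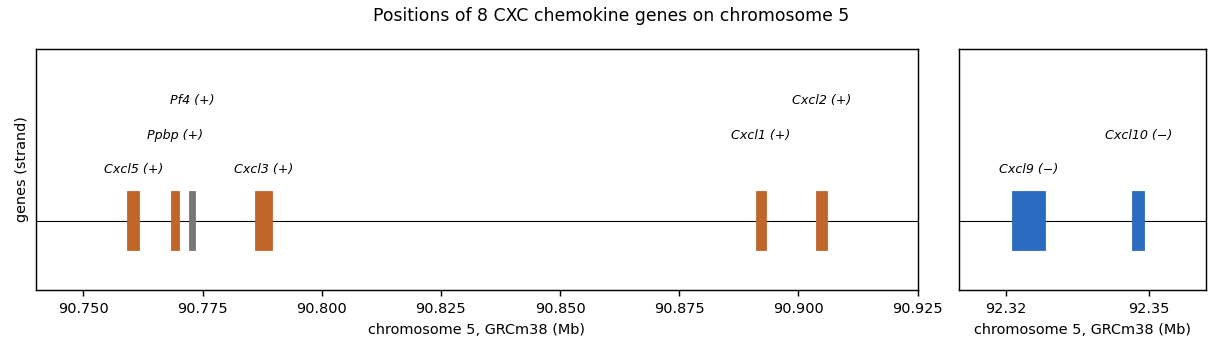
Positions of the 8 CXC chemokine genes of chromosome 5 in GRCm38, in megabases, both panels at the same scale, with the strand in brackets. Orange marks the ELR genes, grey *Pf4* and blue the interferon-induced ligands.

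Exon sequence shared with other annotated genes was counted, since the gene of origin of reads from such sequence can be ambiguous. By the methods, reads were counted only where their mapping was unique. Of the 50-base words of its exons, *Cxcl2* shared 61 with *Cxcl3* (3.28% of its own and 6.31% of those of *Cxcl3*), and *Cxcl1*, *Ppbp* and *Pf4* shared 0 with any annotated gene. *Cxcl10* shared 84 (5.54%) with *Art3* and *Cxcl16* 503 (20.02%) with *Zmynd15*, each of which overlaps it on the opposite strand. *Art3* held 1 to 10 counts per library in the first set and 9 to 53 in the second set, and *Zmynd15* held 1 to 16 and 15 to 67.

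The split into neutrophil attractants and other ligands is visible in the coding bases at the first Cys-X-Cys of each gene, read from the genome by the GENCODE M21 coding exons. They are shown because the classes compared above rest on them. Capitals mark the codons of Glu-Leu-Arg, which directly precede the codons of the first cysteine in 5 of the 9 genes. The positions are chr5:90891487-90891504 for *Cxcl1*, chr5:90904133-90904150 for *Cxcl2*, chr5:90786359-90786376 for *Cxcl3*, chr5:90759718-90759735 for *Cxcl5*, chr5:90769076-90769093 for *Ppbp* and chr5:90772935-90772952 for *Pf4*, on the plus strand. On the minus strand they are chr5:92326842-92326859 for *Cxcl9*, chr5:92348181-92348198 for *Cxcl10* and chr11:70459127-70459144 for *Cxcl16*.
Cxcl1: GAGCTGCGCtgtcagtgc
Cxcl2: GAACTGCGCtgtcaatgc
Cxcl3: GAGCTGCGCtgtcagtgc
Cxcl5: GAGCTGCGTtgtgtttgc
Ppbp: GAACTGCGCtgcagatgt
Pf4: gatcttagctgtgtgtgt
Cxcl9: aatgcacgatgctcctgc
Cxcl10: acggtccgctgcaactgc
Cxcl16: gctggaagttgttcttgt

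The 3′ untranslated regions differed in their number of ATTTA words, the core of AU-rich elements that bind decay factors. *Cxcl2* held 11 in 734 bases, *Cxcl1* 7 in 592, *Cxcl3* 5 in 645 and *Cxcl5* 5 in 1111. *Cxcl9* held 3 in 2452 bases, *Cxcl10* 2 in 729, *Cxcl16* 2 in 1421, *Ppbp* 1 in 656 and *Pf4* 1 in 123. Among 19125 genes with such a region of 100 bases or more the median was 1 word, and 5.01% of genes held as many as *Cxcl2* or more, 12.3% as many as *Cxcl1* and 20.4% as many as *Cxcl3*. These counts are a description and were not corrected for length in the comparison with all genes.

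Of the 9 genes, 7 had a window of 250 bases before the start of the gene in the RefSeq table (GRCm38.p6), and *Cxcl5* and *Cxcl16* were not among them. The windows of *Cxcl1*, *Cxcl2* and *Cxcl3*, which rose with *E. coli*, and of *Cxcl9* and *Cxcl10*, which rose with IFN-γ, are shown to compare the classes. The κB consensus was searched on both strands and was found in *Cxcl1*, *Cxcl2*, *Cxcl3* and *Cxcl10*, beside 7.25% of 32851 windows of the same length. In *Cxcl1*, *Cxcl2* and *Cxcl3* it matched on both strands in overlap within GGGAATTTCCC, the longest word that these 3 windows share, which was in 14 of all windows (0.0426%). The window of *Ppbp*, the other ELR gene with a window, which also rose with *E. coli*, held neither a κB match nor this word. The word lay 61 to 71 bases before the start in *Cxcl1*, 87 to 97 in *Cxcl2* and 63 to 73 in *Cxcl3*. *Cxcl10* had κB matches 150 to 159 and 94 to 104 bases before the start, and it alone of the 7 held the core of an interferon-stimulated response element (GAAA, any 2 bases and GAAA again), 204 to 213 bases before the start, beside 2.98% of all windows. TTCNNNGAA was in 0 of the 7 windows and in 7.02% of all, TATAAA in 3 (*Cxcl3*, *Ppbp* and *Cxcl9*) and 12.4%, and CCAAT in 3 (*Pf4*, *Cxcl9* and *Cxcl10*) and 33.8%. A match describes letters in the window and is not a measured binding site. Capitals mark the κB matches and, in *Cxcl10*, also this core, and the window of *Cxcl9* has no capitals. The windows are chr5:90890995-90891244, chr5:90903649-90903898 and chr5:90785851-90786100 on the plus strand and chr5:92328080-92328329 and chr5:92348890-92349139 on the minus strand.
Cxcl1: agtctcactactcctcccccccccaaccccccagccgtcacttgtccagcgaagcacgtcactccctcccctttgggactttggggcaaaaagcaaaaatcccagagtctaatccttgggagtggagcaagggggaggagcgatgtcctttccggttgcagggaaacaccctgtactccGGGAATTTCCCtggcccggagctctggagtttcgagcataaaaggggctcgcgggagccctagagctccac
Cxcl2: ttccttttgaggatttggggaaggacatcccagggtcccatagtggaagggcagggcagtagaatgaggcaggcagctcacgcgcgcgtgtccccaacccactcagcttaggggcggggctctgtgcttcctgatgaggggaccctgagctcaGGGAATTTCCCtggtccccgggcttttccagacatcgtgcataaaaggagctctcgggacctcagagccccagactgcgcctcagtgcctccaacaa
Cxcl3: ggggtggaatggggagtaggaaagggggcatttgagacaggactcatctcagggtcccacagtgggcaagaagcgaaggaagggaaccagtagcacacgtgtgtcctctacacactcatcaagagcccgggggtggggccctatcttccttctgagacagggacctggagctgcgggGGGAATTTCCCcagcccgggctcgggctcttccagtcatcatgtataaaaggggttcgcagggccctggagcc
Cxcl9: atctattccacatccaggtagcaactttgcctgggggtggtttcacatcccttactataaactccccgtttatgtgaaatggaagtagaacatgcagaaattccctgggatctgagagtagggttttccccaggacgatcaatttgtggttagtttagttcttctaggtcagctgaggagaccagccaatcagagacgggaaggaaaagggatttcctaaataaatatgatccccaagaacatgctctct
Cxcl10: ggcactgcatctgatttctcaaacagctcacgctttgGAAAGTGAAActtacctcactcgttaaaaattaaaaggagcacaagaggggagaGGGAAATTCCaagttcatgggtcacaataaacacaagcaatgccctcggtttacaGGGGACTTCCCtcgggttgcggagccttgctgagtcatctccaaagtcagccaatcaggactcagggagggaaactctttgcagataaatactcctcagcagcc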

How the data were processed

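The authors deposited counts per Ensembl gene without normalization, and the submitters name fastp 0.20.1, STAR 2.7.2a, TopHat2 2.1.0, HTSeq 0.6.1 and GRCm38 for every sample without saying whether molecular identifiers were collapsed. Summary lines of the files, 21.1% to 39.4% of the counts in the first set, were left out. Genes were filtered with filterByExpr, scaled by TMM and compared with the quasi-likelihood test of edgeR 4.0.16 in R 4.3.3, with 1 model for the 12 libraries of the first set (9883 genes) and another for the 6 of the second (10556 genes), with Benjamini-Hochberg adjustment over all genes tested. Approximate standard errors and 95% intervals come from the log2 fold change and its F statistic. Log2 CPM for correlations used a prior count of 2. Named genes were the 9 members, their closest genes by correlation, and members of the lists of receptors, ligands, routes and cell type markers. The members and lists were chosen with earlier results of these data known. Alternatives were DESeq2 1.42.0, DESeq2 size factors in edgeR, other filters, a fold change of at least 2, other sets of libraries in the fit, all 6 unstimulated libraries as a single group, leaving out each library, the replicate number as a block (limma 3.58.1) and counts corrected for a ceiling.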

Additional observations from a re-analysis of the deposited data

Results flagged for a closer look

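The effects of IFN-γ and *E. coli* on 3 of the chemokine genes did not add up on the log2 scale, by a test of the difference itself, with 1 gene departing upward, where 2.58% of all genes tested did, and 2 downward, where 2.04% did. The joint change of *Cxcl1* exceeded the sum of the single changes by 1.48, and this missed the threshold without control a (1.23, adjusted p = 0.0843), IFN-γ library 2 (1.29, adjusted p = 0.0639) or library 2 of the joint group (1.39, adjusted p = 0.0501). The joint change departed from the sum by -2.10 for *Cxcl3* and by -2.15 for *Ppbp*, against controls a to c. The departure of *Ppbp* was more negative without control c. With all 6 unstimulated libraries as a single control group, an alternative chosen after seeing the data, the departure was 1.58 for *Cxcl1* (adjusted p = 0.0625), -1.88 for *Cxcl3* (adjusted p = 0.00265) and 0.75 for *Ppbp* (adjusted p = 0.811). Markers of other cells departed as well. Every B cell gene tested, *Marco*, *Timd4* and *Ccr7* (1.80) departed upward. Among the neutrophil genes tested only *S100a8* passed, downward (-2.55). The part of these cells in the departures was not tested.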

How the results depend on the processing

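Of 1090 log2 changes under alternative settings, 1010 kept their direction and their side of the threshold, 36 newly passed the test, 42 no longer passed it, and 2 turned their direction. With all 6 unstimulated libraries as a single group the log2 change of *Ppbp* with *E. coli* was -0.0207, and its interaction, tested with this group after seeing the data, was 0.745. With that control group 2 genes rose with IFN-γ, 6 with both stimuli and 1 with IL-4, and in the interaction 0 departed upward and 1 downward. By DESeq2 0 genes fell with IFN-γ and 4 with IL-4. Without a filter on low counts 2 genes fell with IFN-γ, 1 fell with both stimuli, 5 fell and 1 rose with IL-4, and 2 departed upward in the interaction. With a fold change of at least 2 required, 3 genes rose and 0 fell with IFN-γ, 4 were higher with both stimuli than with *E. coli*, and 1 was higher with IFN-γ than with *E. coli*. With only the 6 libraries of the compared groups 2 genes fell with IFN-γ. With counts corrected for the ceiling, a step chosen after seeing the data, 2 genes departed upward in the interaction. Leaving out each library in turn, with the spread pooled over groups, the count that fell with IFN-γ ranged from 0 to 1, that which rose with IL-4 from 0 to 1, that which fell with IL-4 from 2 to 4, and that which departed upward in the interaction from 0 to 3. Replicate numbers are shared by the stimulated groups only. Same-numbered libraries correlated at -0.04 to 0.33 and differently numbered ones at -0.38 to 0.27. These ranges overlap, and the main models did not use the numbers as pairs. With them as a replicate block, 25 values kept their side, and IFN-γ against *E. coli* newly passed for *Pf4* (-0.56, adjusted p = 0.0217) and *Cxcl10* (0.50, adjusted p = 0.00719). Comparisons with unstimulated libraries, which carry letters, could not be fitted with this block. By DESeq2 *Cxcl1* (-0.62, adjusted p = 0.0449) and *Cxcl2* (-0.73, adjusted p = 0.0114) passed with IL-4 and *Cxcl16* (0.70, adjusted p = 0.0478) with IFN-γ. With only the compared groups in the fit, *Cxcl1* (-0.63, adjusted p = 0.0175) and *Cxcl16* (0.66, adjusted p = 0.0171) passed with IFN-γ. The cause of these changes was not tested. At 1523808 to 2734041 counts per library, 3 counts correspond to 1.10 to 1.97 CPM, and lower levels cannot be told from 0, and counts near 4096 limit how large a rise can appear.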
